A study of Homo sapiens with 6 samples.

Results

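Ribosomes are built in the nucleolus. RNA polymerase I (Pol I) transcribes the long precursor of ribosomal RNA there, small nucleolar ribonucleoproteins (snoRNPs) modify and fold it, and assembly factors cut it and load ribosomal proteins until the small and large subunits can be exported. Many genes of this machinery are known targets of the transcription factor MYC, and several have an E-box, the sequence that MYC and its partner MAX recognise, close to their start site. The machinery is described here in K562 cells, an established chronic myelogenous leukaemia line that carries the BCR-ABL1 fusion, after short inhibition of the Mediator kinases CDK8 and CDK19.

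A list of 54 genes was followed: 8 Pol I subunits, 2 Pol I initiation factors, 8 snoRNP proteins, 18 assembly factors of the small subunit, 13 of the large subunit, and 5 nucleolar proteins with several roles. Probe sets annotated with exactly 1 of these symbols were taken, 105 in all, and each gene was read from its brightest probe set. That covered 48 of the 54 genes, out of 12810 genes measured in the series. NOP56, DKC1, BOP1, GNL3, EBNA1BP2 and PPAN were not analysed here because no probe set carried their symbol alone in the annotation used. The CA group consisted of 3 wells kept for 3 h with 25 nM CA (cortistatin A, as the title of the series spells it out), and the DMSO group of 3 wells kept for 3 h with DMSO, the vehicle. All wells held the same cell line, plated at 500000 to 800000 cells per mL, and 1 Affymetrix U133 Plus 2.0 array was hybridised per well. The labels do not describe the wells as separate cultures, so p-values measure only the spread between these 6 samples, which may be technical.

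Values are RMA log2 signals, in which a difference of 1 is a doubling. A change is CA minus DMSO, fitted by limma over all 27307 probe sets bright enough to test, and a gene is called below when its p adjusted over all of them is under 0.05. Because RMA forces all arrays onto a shared distribution, a change is relative to the other transcripts, and less RNA per cell cannot be told apart from fewer cells of a kind. Scaling the arrays to the 3' probe sets of exogenous control RNAs would add 0.20 to every change, so a negative change smaller than that turns sign there, and directions below hold relative to the other transcripts. The arrays had medians of 3.48 to 3.52 for CA and 3.47 to 3.50 for DMSO. CA array 1 lay apart from the other 5 arrays on the second principal component, at 19.0 against -7.20 to -0.34. The 3' to 5' difference of the actin control probe sets was 1.14, 1.18 and 1.31 in CA and 1.45, 1.49 and 1.40 in DMSO, so the groups did not overlap (exact permutation p = 0.1, 2-sided, the smallest that 3 against 3 arrays allow). The same difference of the GAPDH control probe sets was 0.63, 0.58 and 0.60 in CA and 0.62, 0.64 and 0.65 in DMSO, with overlap (exact permutation p = 0.2). Their part in the results below was not tested. Of 8 K562 markers, 6 had a probe set, all above the filter. HBE1 averaged 13.27 in CA and 13.27 in DMSO, and GATA1 8.43 and 8.38. TAL1 averaged 9.60 in CA and 9.38 in DMSO and TFRC 12.25 and 12.13, and for both all CA arrays lay above all DMSO arrays. The summed linear signal of the 6 was 19840 to 20271 in CA and 19632 to 19725 in DMSO, without overlap. Among 9 markers of other cells, 8 had a probe set. ALB, CD14 and MS4A1 were below the filter. CD3D, EPCAM and KRT18 averaged 9.05, 10.45 and 11.39 in CA and 9.08, 10.47 and 11.48 in DMSO. COL1A1 averaged 6.97 in CA and 6.92 in DMSO, and CD3E 3.77 and 3.66. Of these 5, KRT18 alone had groups without overlap, with CA below. The summed linear signal of the 8 was 4695 to 4838 in CA and 4868 to 5012 in DMSO, without overlap. The part of these markers in the results was not tested either.

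MYC transcripts rose. MYC had 11.71, 11.70 and 11.75 on the CA arrays, against 11.21, 11.22 and 11.22 on the DMSO arrays. All CA arrays lay far above all DMSO arrays. The change was 0.50 (95% confidence interval 0.41 to 0.60, limma adjusted p = 0.0235), a 1.42-fold rise. MYC is read by a single probe set. The change kept its size, 0.49 to 0.51, but not its call when dim probe sets were kept (limma adjusted p = 0.115), with the replicate number as a block (0.352) or with any 1 array left out (0.0916 to 0.198).

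No member of the ribosome biogenesis list passed the same test. Of 48 measured members 0 were called by limma, where 0.0859% of all measured genes were (0.0625% for genes higher in CA). The smallest adjusted p was 0.0813. Among all called genes the smallest change in size was 0.46, while the largest change of a member was 0.38. The count of 0 therefore says little about changes of the members' size. At an unadjusted p under 0.05 there were 9 members, 8 higher and 1 lower in CA, which is 18.8% of the list beside a background of 8.61% of all measured genes. Without CA array 1 there were 5 members, 10.4% of the list, beside 11.1% of genes, so the share of the list was then no higher than that of all genes. With any other single array left out, the share was 10.4% to 20.8% of the list, beside 6.80% to 7.54% of genes. With all arrays, the background was 3.59% for genes higher in CA and 5.02% for genes lower in CA. The members were brighter than most genes, with a median signal of 9.25 against 6.45 over all genes, and had smaller standard errors, with a median of 0.05 against 0.06. When only probe sets at or above the 75th percentile of signal were tested, 11 of 48 members were at p under 0.05 beside 13.2% of genes. The median change of the members was 0.03, beside -0.01 over all measured genes, and 31 members had fitted changes above 0 (64.6%, beside 43.5% of all genes).

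The changes were small next to that of MYC. For 46 of the 48 members the whole 95% interval lay below 0.41, the lower bound of the MYC interval. The exceptions were RCL1 and POLR1G. For 39 members the interval lay within a 1.2-fold change in either direction.

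**Figure D1:**
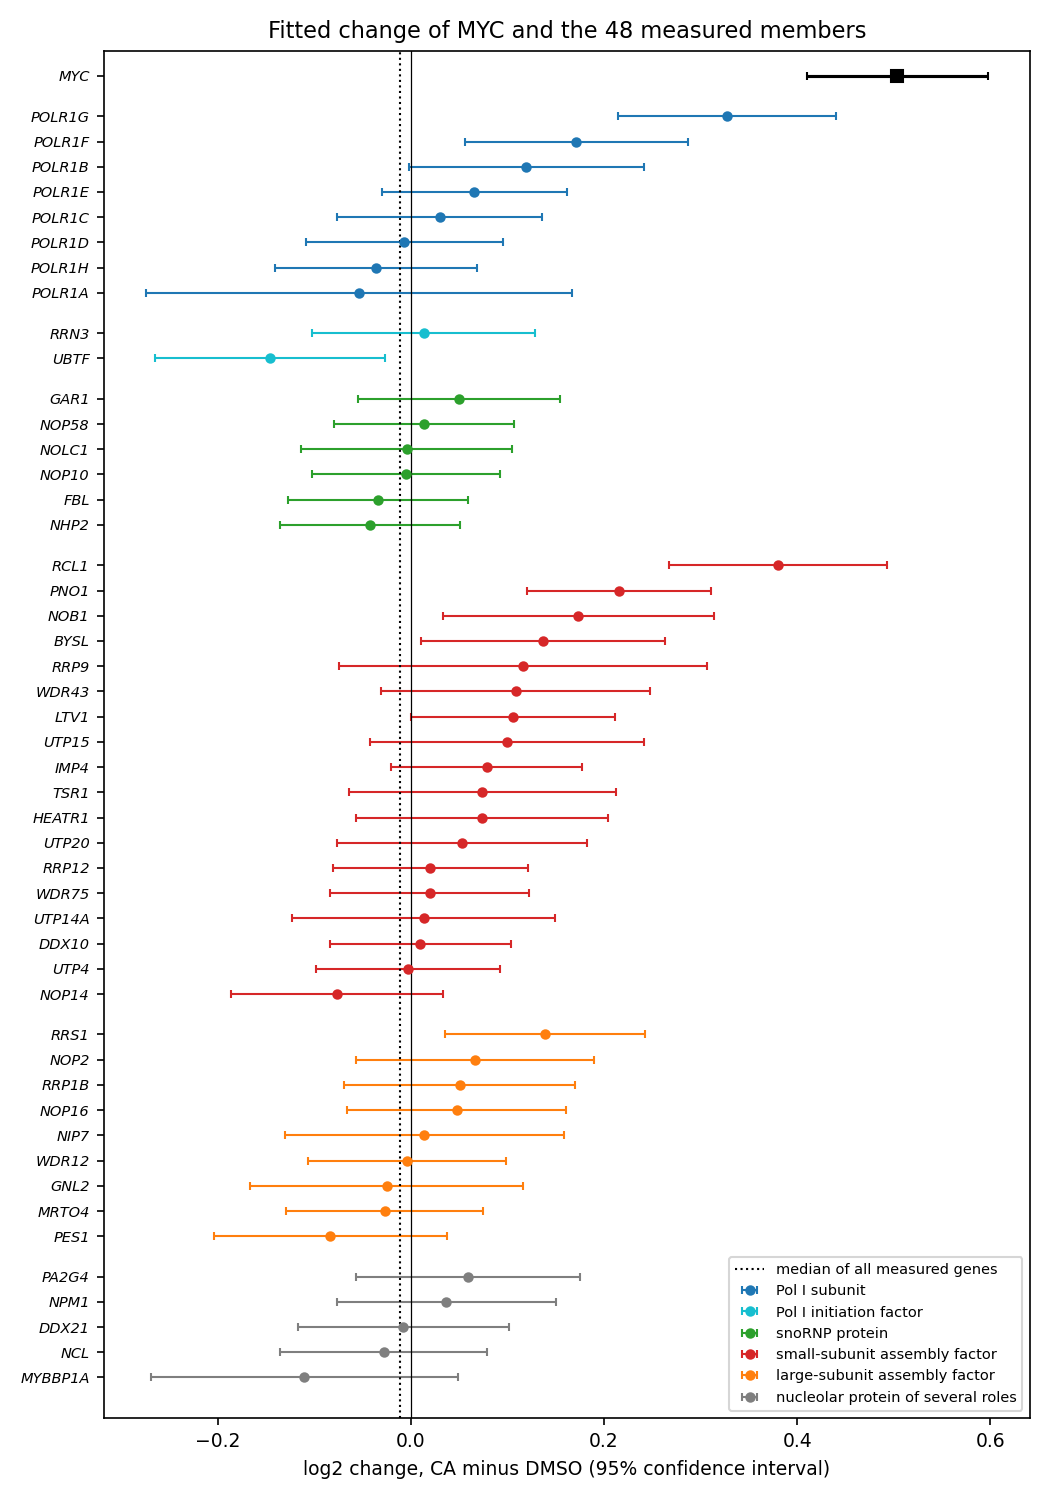
Fitted log2 change (CA minus DMSO, horizontal axis) of MYC (black square) and of the 48 measured members, grouped and coloured by role. Bars are 95% confidence intervals from limma and the dotted line is the median of all measured genes (-0.01). RCL1, POLR1G and PNO1 stand farthest to the right among the members, and 46 intervals end below the lower bound of MYC (0.41).

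The members were also compared by the sequence at their start sites, because the list is set beside MYC. The E-box searched was CACGTG, which reads the same on both strands and overlaps no other motif searched. RefSeq promoter windows (GRCh38.p14, 250 bases before to 50 after the start) were found for 47 of the 54 genes. BOP1, NOLC1, NOP58, POLR1E, RRP12, RRP1B and RRS1 had none in that table. The E-box was present in 20 of the 47 windows (42.6%), in 10.2% of the windows of measured genes and in 7.43% of all 27305 windows. Small-subunit assembly factors had it in 11 of 17 windows and large-subunit factors in 5 of 10, but Pol I subunits in 1 of 7. The stretch from 60 bases before to 20 after the start is printed for the 3 members with the smallest p, RCL1, POLR1G and PNO1. It is also printed for WDR43, UTP4 and NOP10, which hold the motif at a like distance and changed by 0.11, -0.0027 and -0.0049. The latter are examples only. RRP9, UTP20, FBL and GNL2 hold the motif as near the start, with changes of 0.12, 0.05, -0.03 and -0.02, and are not printed. The NOP10 window also holds another copy, outside the printed stretch. Whether the motif bears on the change was not tested by these examples. Capitals mark the E-box, and each sequence runs 5′ to 3′ on the strand of the gene.
RCL1 (chr9:4792884-4792963, + strand): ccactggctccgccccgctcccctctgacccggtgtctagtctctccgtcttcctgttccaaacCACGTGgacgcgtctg
POLR1G (chr19:45406584-45406663, + strand): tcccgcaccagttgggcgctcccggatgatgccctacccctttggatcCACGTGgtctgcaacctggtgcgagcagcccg
PNO1 (chr2:68157828-68157907, + strand): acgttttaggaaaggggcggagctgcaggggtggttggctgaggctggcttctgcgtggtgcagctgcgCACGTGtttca
WDR43 (chr2:28894607-28894686, + strand): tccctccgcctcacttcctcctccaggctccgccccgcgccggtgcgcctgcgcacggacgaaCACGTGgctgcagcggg
UTP4 (chr16:69132589-69132668, + strand): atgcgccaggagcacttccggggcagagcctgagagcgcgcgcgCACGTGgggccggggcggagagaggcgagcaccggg
NOP10 (chr15:34343117-34343196, - strand): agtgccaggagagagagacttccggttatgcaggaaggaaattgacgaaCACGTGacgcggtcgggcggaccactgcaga

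Members with and without the motif both had changes on either side of 0. The 19 measured members with the E-box had a median change of 0.05, with 5 at an unadjusted p under 0.05 and 11 above 0. The 23 measured members with a window that lacked it had a median change of 0.02, with 3 at p under 0.05 and 15 above 0. Over all measured genes 8.61% were at p under 0.05 and 43.5% had changes above 0. The motif was unevenly spread over the roles, and role was not held constant in this comparison. POLR1F, NOB1 and UBTF were at p under 0.05 with no such letters in their windows. A match describes the letters only and does not show that a factor binds there. Other assembly factors of the pathway had the motif in 8 of 28 windows for the small and 10 of 35 for the large subunit. Ribosomal protein genes had it in 3 of 59 windows.

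**Figure D2:**
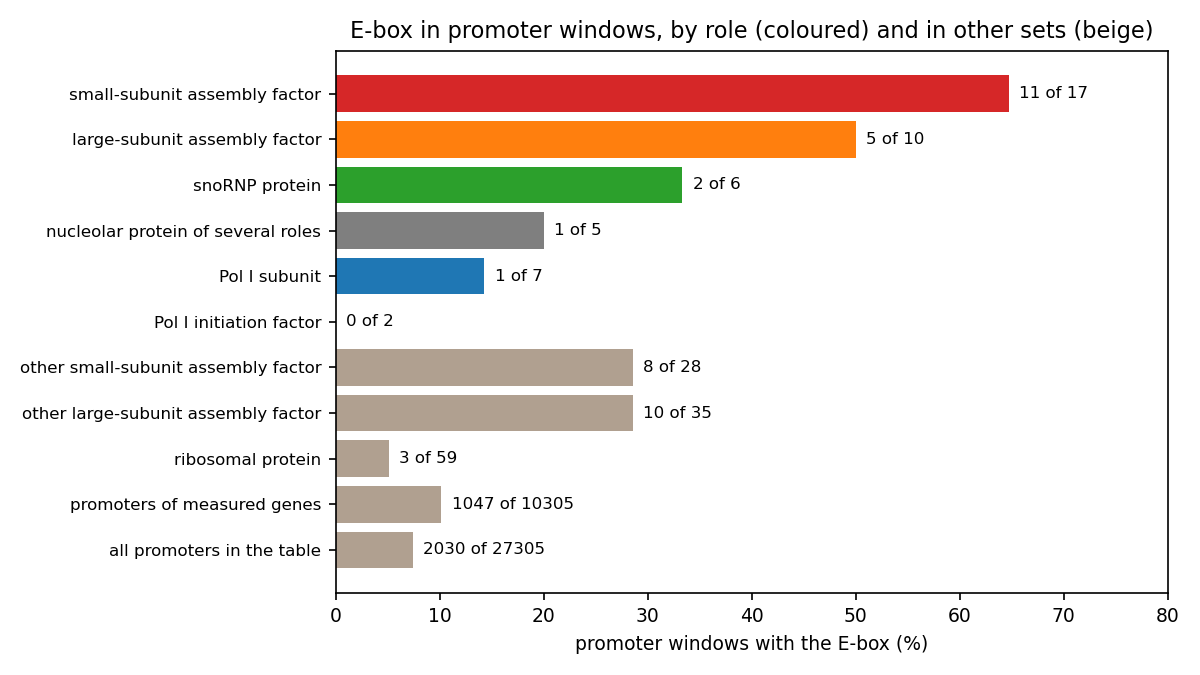
Share of promoter windows that contain the E-box (horizontal axis, percent, from 0), by role of the members (coloured) and in other sets (beige), with the count beside each bar. The assembly factors of the small subunit (11 of 17) have the highest share and the genes of ribosomal proteins (3 of 59) the lowest share above 0.

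Pol I subunits differed among themselves. POLR1G, the partner of POLR1E in a heterodimer on the side of the enzyme, had 7.93, 7.85 and 7.84 in CA, against 7.50, 7.58 and 7.57 in DMSO. All CA arrays were above all DMSO arrays. Its change was 0.33 (0.21 to 0.44, limma adjusted p = 0.116), the second largest of the list, and it is read by 1 probe set. POLR1F, which docks the initiation factor RRN3 onto the polymerase, had 9.06, 8.95 and 9.03 in CA, against 8.85, 8.80 and 8.87 in DMSO. Again the groups did not overlap, and the change was 0.17 (0.06 to 0.29, adjusted p = 0.357). POLR1B, the second largest subunit, had 9.26, 9.22 and 9.20 in CA, against 9.12, 9.17 and 9.03 in DMSO, with a change of 0.12 (-0.0021 to 0.24, adjusted p = 0.546) and no overlap between the groups.

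The other subunits showed less. POLR1E had a change of 0.07, also with no overlap. POLR1C and POLR1D, which Pol I shares with RNA polymerase III, had 0.03 and -0.01. POLR1A, the catalytic subunit, had -0.05 with the widest interval of the list (-0.27 to 0.17). Its 2 other tested probe sets went the other way, at 0.06 and 0.10. POLR1H, which helps the enzyme cleave its transcript and was the brightest of the subunits, had 10.40, 10.36 and 10.41 in CA, against 10.44, 10.38 and 10.46 in DMSO, with overlapping groups and a change of -0.04 (adjusted p = 0.855). The median of the 8 subunits was 0.05. POLR1G and POLR1F were at an unadjusted p under 0.05 (25% of the subunits, beside 8.61% of all genes), both upward.

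Neither initiation factor passed the test. UBTF, the HMG-box protein that covers active ribosomal DNA, was the single member lower in CA at an unadjusted p under 0.05, on the RMA scale (its change was 0.06 with 3' control scaling, and -0.01, limma adjusted p = 0.948, as the mean of its 5 probe sets). It had 6.16, 6.21 and 6.26 in CA, against 6.30, 6.39 and 6.39 in DMSO. All CA arrays were below all DMSO arrays, and the change was -0.15 (-0.27 to -0.03, limma adjusted p = 0.433). RRN3, which makes Pol I competent to initiate, had 8.04, 8.01 and 7.95 in CA, against 7.95, 8.05 and 7.96 in DMSO. Its groups overlapped and its change was 0.01 (adjusted p = 0.961). Beyond the members, SL1, the TBP-containing complex that selects the Pol I promoter, and the termination factor TTF1 gave 0 calls of 6. Of these, TAF1B had 7.30, 7.28 and 7.22 in CA, against 7.35, 7.39 and 7.42 in DMSO, with a change of -0.11 (adjusted p = 0.505). TTF1 had 7.62, 7.64 and 7.63 in CA, against 7.73, 7.74 and 7.70 in DMSO, with a change of -0.09 (adjusted p = 0.530). For both, every CA array was below every DMSO array. TAF1A went the other way, at 0.10, and the 5 subunits that Pol I shares with other polymerases had a median of -0.01.

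None of the 6 snoRNP proteins measured was at an unadjusted p under 0.05 (beside 8.61% of all genes). Their median was 0.00, and every change lay between -0.04 and 0.05. FBL, the ribose methyltransferase of box C/D snoRNPs and the brightest of the group, had 11.75, 11.72 and 11.76 in CA, against 11.78, 11.77 and 11.78 in DMSO. The CA arrays lay just below the DMSO arrays, by a change of -0.03 (-0.13 to 0.06, adjusted p = 0.844). NHP2, a core protein of the box H/ACA snoRNPs that make pseudouridine, had 11.43, 11.45 and 11.45 in CA, against 11.50, 11.47 and 11.49 in DMSO, with a change of -0.04 (adjusted p = 0.802). GAR1, of the same particle, had 10.66, 10.69 and 10.68 in CA, against 10.58, 10.67 and 10.63 in DMSO, with overlapping groups and a change of 0.05 (adjusted p = 0.787). NOP58 had 0.01, NOP10 0.00, and the snoRNP chaperone NOLC1 0.00.

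Assembly factors of the small subunit had the highest median of the roles. Of 18 measured, 16 had fitted changes above 0 (88.9%, beside 43.5% of all genes), and their median was 0.08. At an unadjusted p under 0.05 there were 5 (27.8%, beside 8.61% of all genes), all of them higher in CA. That count was 2 of 18 without CA array 1, beside 11.1% of all genes. It was 2 of 18 without DMSO array 1, beside 7.19% of all genes. RCL1 in yeast takes part in separating the small-subunit RNA from the precursor. It had 8.27, 8.23 and 8.23 in CA, against 7.89, 7.90 and 7.80 in DMSO. Its CA arrays were well above its DMSO arrays. The change was 0.38 (0.27 to 0.49, limma adjusted p = 0.0813), 1.30-fold and the largest of the list. PNO1 is an RNA-binding protein that guards the end of the small-subunit RNA until NOB1, a nuclease, makes the final cut. PNO1 had 10.38, 10.37 and 10.40 in CA, against 10.18, 10.14 and 10.18 in DMSO, and its change was 0.22 (0.12 to 0.31, adjusted p = 0.199). NOB1 had 9.25, 9.27 and 9.18 in CA, against 8.96, 9.11 and 9.11 in DMSO, and its change was 0.17 (0.03 to 0.31, adjusted p = 0.429). For both partners all CA arrays lay above all DMSO arrays.

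BYSL, known in yeast to stay on the small-subunit precursor into late maturation, and LTV1, which takes part in its export, were the other 2 at an unadjusted p under 0.05. BYSL had 9.13, 9.03 and 9.12 in CA, against 8.96, 8.90 and 9.02 in DMSO (change 0.14, adjusted p = 0.498). LTV1 had 9.41, 9.40 and 9.47 in CA, against 9.29, 9.36 and 9.32 in DMSO (change 0.11, adjusted p = 0.535). Both had groups that did not overlap, by narrow margins. With RCL1 and the other 4 factors above set aside, those of the early small-subunit processome ranged from -0.08 for NOP14 to 0.12 for RRP9. RRP9 is a protein of the U3 snoRNP. WDR43 had 0.11, UTP15 0.10, IMP4 0.08, HEATR1 0.07, UTP20 0.05, WDR75 0.02, UTP14A 0.01 and the helicase DDX10 0.01. TSR1 and RRP12, which act on the precursor up to its export, had 0.07 and 0.02. UTP4 was the brightest, with 10.62, 10.62 and 10.62 in CA, against 10.64, 10.59 and 10.64 in DMSO, and a change of 0.00 (adjusted p = 0.989). Over all members, the groups did not overlap for 14 of 48 (29.2%, beside a background of 16.1% of genes). CA was above in 11 of these (background 6.14%) and below in 3 (background 9.95%).

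**Figure D3:**
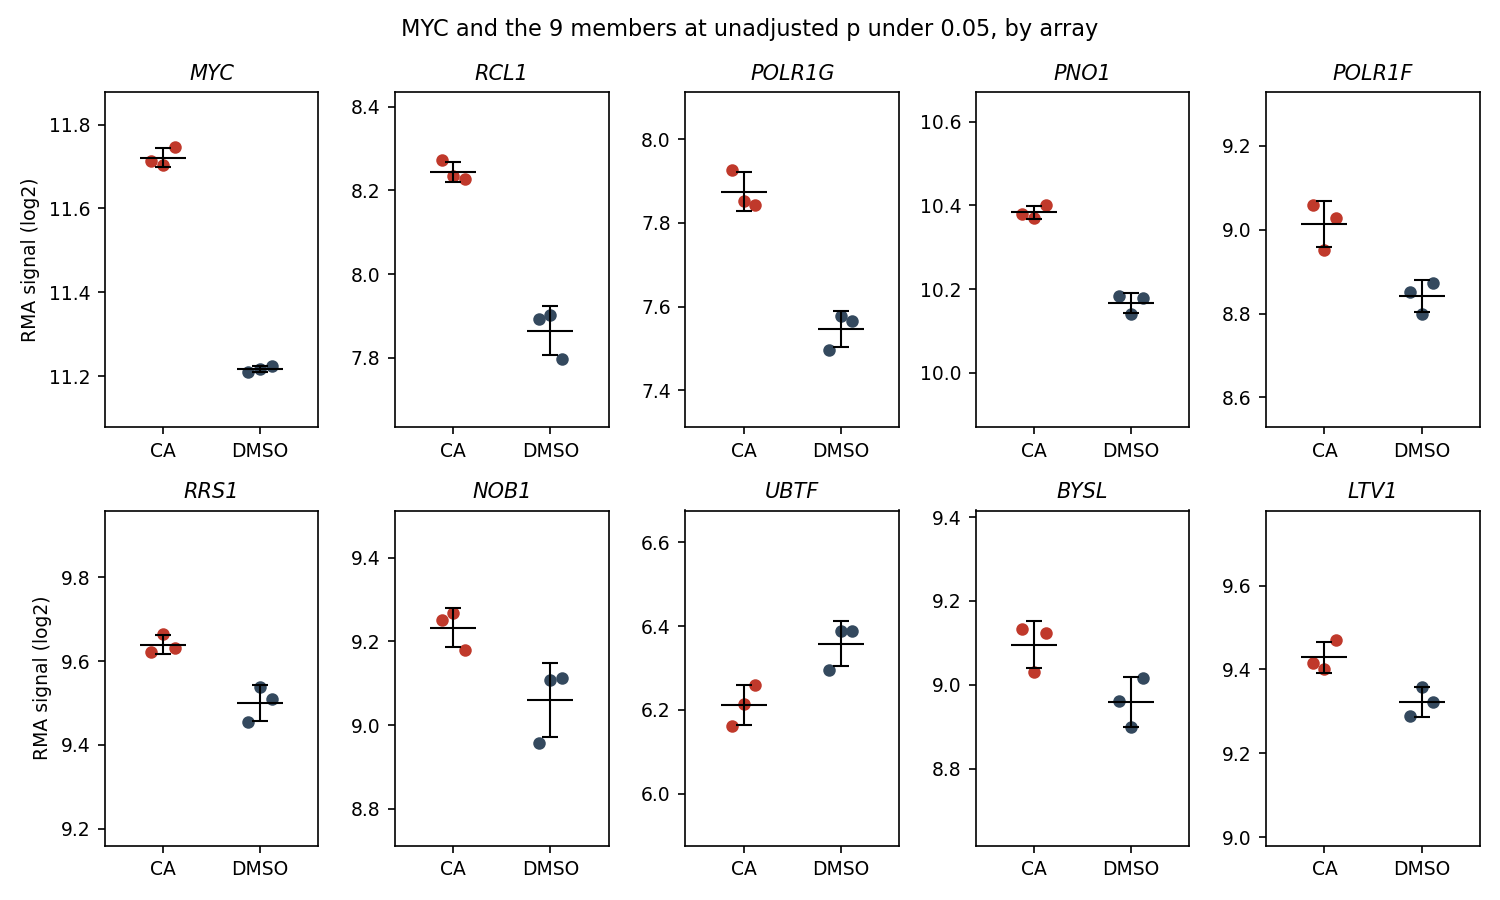
RMA log2 signal by array for MYC and the 9 members at an unadjusted p under 0.05, in order of p. Points are single arrays (CA left, DMSO right), the wide bar is the group mean and the error bar its SD (n = 3), and every panel spans the same height in log2 units. The groups do not overlap in any of the 10 panels, beside 16.1% of all measured genes. The 9 members were picked by p on these same arrays, which favours groups without overlap. UBTF is the single panel with CA below DMSO (on the RMA scale shown, its change being 0.06 with 3' control scaling). The step of MYC is the tallest.

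Of 9 measured assembly factors of the large subunit, 1 was at an unadjusted p under 0.05 (11.1%, beside 8.61% of all genes). Fitted changes were above 0 for 5 (55.6%, beside 43.5% of all genes), and the median was 0.01. RRS1, which in yeast brings the RNP of the smallest ribosomal RNA into the large subunit, had 9.62, 9.66 and 9.63 in CA, against 9.45, 9.54 and 9.51 in DMSO. All CA arrays were above all DMSO arrays, with a change of 0.14 (0.04 to 0.24, limma adjusted p = 0.393). PES1, the scaffold of the PeBoW complex, had 7.71, 7.60 and 7.68 in CA, against 7.69, 7.79 and 7.76 in DMSO (change -0.08, adjusted p = 0.679). Its partner WDR12 had 0.00. NOP2, a methyltransferase of the large-subunit RNA, had 7.42, 7.41 and 7.35 in CA, against 7.24, 7.36 and 7.37 in DMSO (change 0.07, adjusted p = 0.758). Neither pair of groups separated. NOP16, the brightest of these factors, had 10.87, 10.89 and 10.95 in CA, against 10.91, 10.81 and 10.84 in DMSO, also with overlap (change 0.05, adjusted p = 0.817). RRP1B had 0.05, NIP7 0.01, the GTPase GNL2 -0.02 and MRTO4 -0.03.

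The abundant nucleolar proteins of several roles did not pass either. None of the 5 was at an unadjusted p under 0.05, beside 8.61% of all genes. NPM1, a histone and ribosome chaperone and the brightest member of the list, had 13.32, 13.26 and 13.20 in CA, against 13.21, 13.25 and 13.21 in DMSO (change 0.04, limma adjusted p = 0.865). PA2G4, a growth-linked protein of pre-ribosomes, had 10.16, 10.04 and 10.09 in CA, against 10.04, 10.02 and 10.06 in DMSO (change 0.06, adjusted p = 0.772). MYBBP1A, which binds the Pol I machinery, had 7.02, 6.94 and 7.09 in CA, against 7.02, 7.18 and 7.18 in DMSO (change -0.11, adjusted p = 0.678). In all 3 the groups overlapped. Nucleolin, NCL, had -0.03 and the helicase DDX21 -0.01.

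Several probe sets for a gene gave a further reading. Of the 48 members, 25 had more than 1 tested probe set, and for 13 of these all fitted changes had 1 sign, 10 upward and 3 downward. The share over all genes with several probe sets is not given, and probe sets of a gene were read on the same arrays. RCL1 had 0.38 and 0.28 on its 2 probe sets, PNO1 had 0.22, 0.15 and 0.18 on 3, and POLR1F had 0.17 and 0.12 on 2, each at an unadjusted p under 0.05. All 4 tested probe sets of HEATR1 lay between 0.06 and 0.08, and all 3 of NPM1 between 0.02 and 0.04. For the other 12 genes the signs differed. POLR1B had 0.12, 0.20, -0.05 and 0.10. POLR1E had 0.07, 0.04 and -0.19. UBTF had -0.15, -0.08, 0.08, 0.12 and -0.04 on 5 probe sets in order of brightness, so 3 of the 5 were below 0. RRP1B had 0.05 on its bright probe set and 0.23 (unadjusted p = 0.0169 by limma) on a dim one. Of the 91 tested probe sets of the members, 16 were at p under 0.05 (17.6%, beside 9.31% of all tested probe sets), 15 higher and 1 lower in CA.

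**Figure D4:**
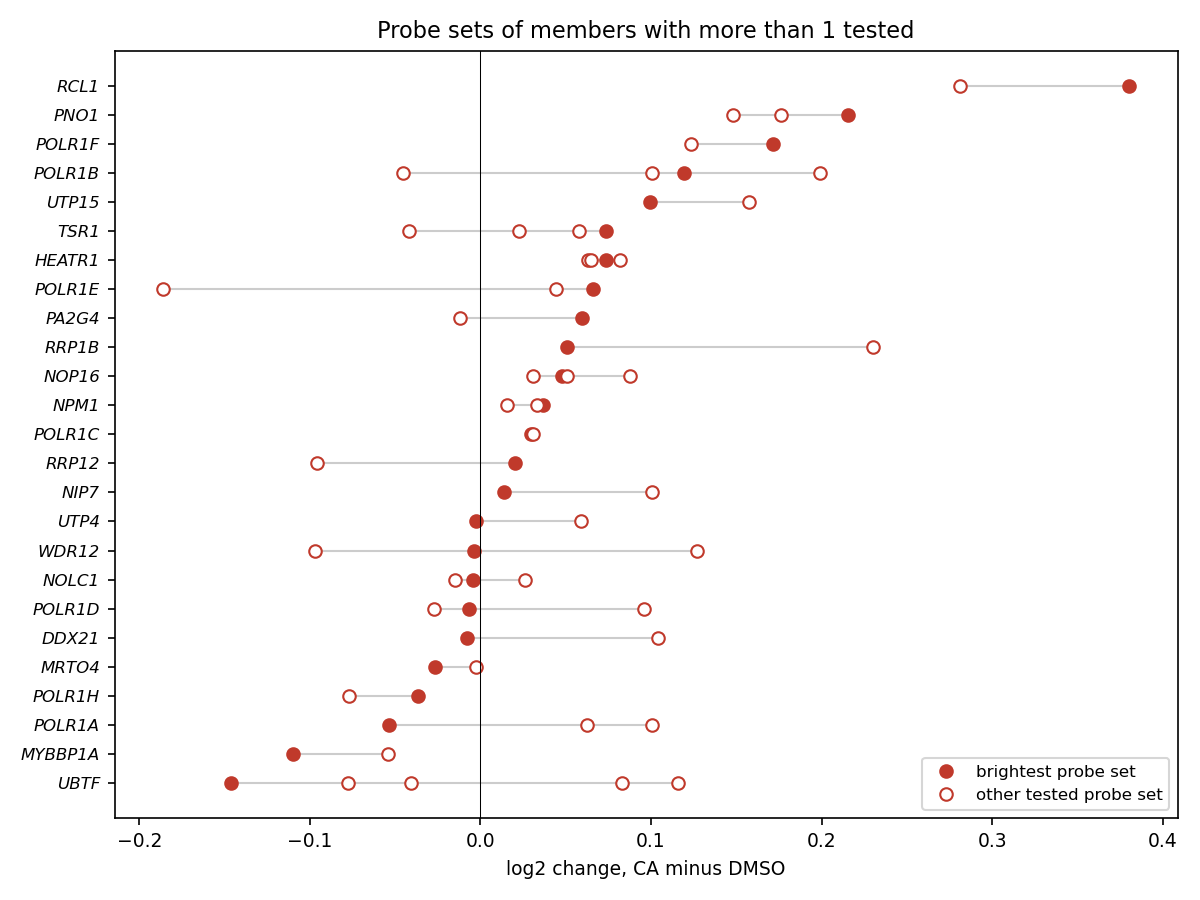
Fitted log2 change (CA minus DMSO) of every tested probe set for the 25 members with more than 1. Filled points are the brightest probe set, by which the gene was read, and open points the others. The probe sets of RCL1, PNO1 and POLR1F lie together on the positive side, while those of UBTF span -0.15 to 0.12 and those of POLR1E -0.19 to 0.07.

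A wider list of the same pathway had a median nearer to that of all genes than the members had. Of 69 further assembly factors measured, 0 were called by limma, 4 were at an unadjusted p under 0.05 (5.80%, beside a background of 8.61%), and their median was 0.00. Those of the small subunit had a median of -0.01 over 33 genes and those of the large subunit 0.00 over 36, against 0.08 and 0.01 for the members of the same roles. UTP25, a processome protein, had 8.13, 8.14 and 8.14 in CA, against 7.94, 7.96 and 7.91 in DMSO, with no overlap and a change of 0.20 (adjusted p = 0.223). MAK16, a large-subunit factor, had 9.51, 9.49 and 9.49 in CA, against 9.41, 9.33 and 9.37 in DMSO (change 0.13, adjusted p = 0.407). RIOK2, a kinase of late small-subunit assembly, had 8.65, 8.64 and 8.65 in CA, against 8.54, 8.55 and 8.56 in DMSO (change 0.09, adjusted p = 0.518). In both of these the CA arrays were also above the DMSO arrays. The 49 measured ribosomal protein genes, of 74 listed, had a median of -0.01 and 0 at p under 0.05, beside 8.61% of all genes. Of the 49, 14 had fitted changes above 0 (28.6%, beside 43.5% of all genes). Their median signal was 13.18, near the highest of any measured gene (13.86). RPS23, the brightest of the 49, had 13.72, 13.69 and 13.72 in CA, against 13.71, 13.71 and 13.74 in DMSO (change -0.01, adjusted p = 0.968).

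**Figure D5:**
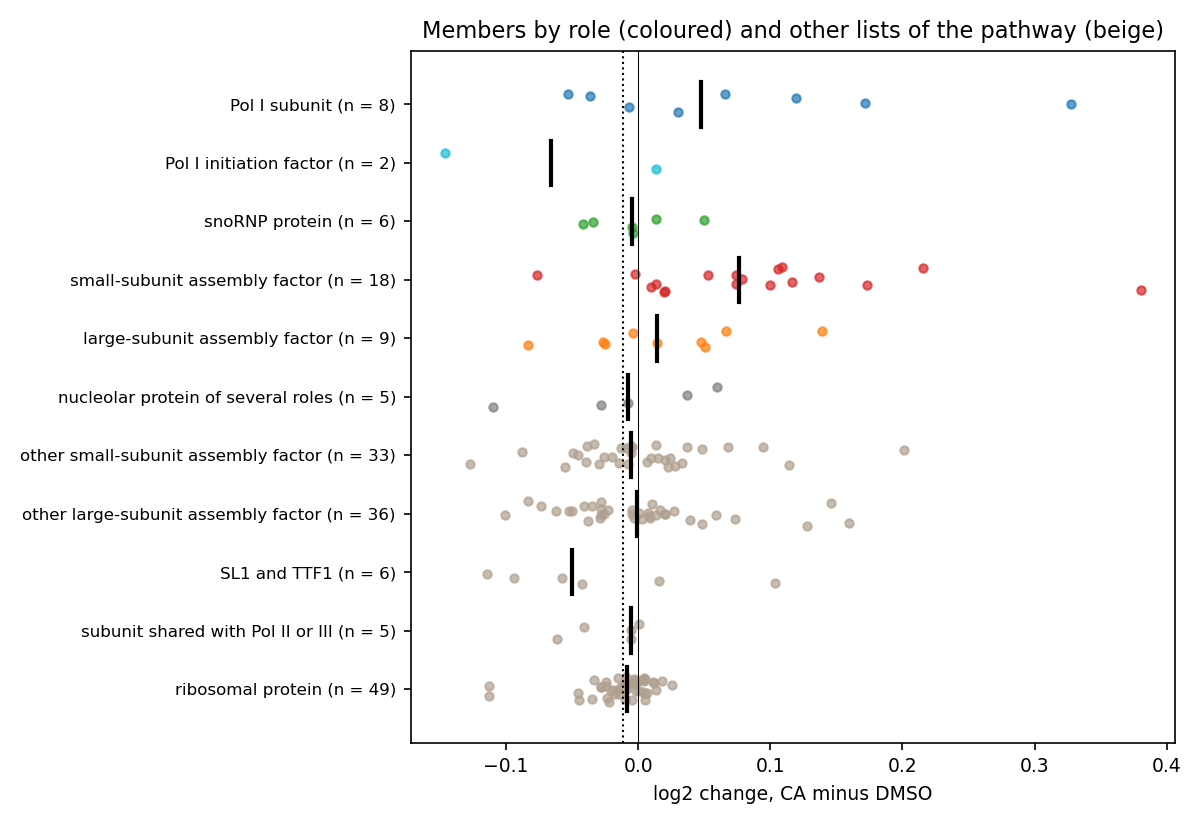
Fitted log2 change (CA minus DMSO) of each measured gene, 1 point per gene, for the members by role (coloured) and for other lists of the pathway (beige). Black bars are list medians and the dotted line is the median of all measured genes (-0.01). The median is 0.08 for the small-subunit members and -0.01 for the further small-subunit factors and for ribosomal proteins.

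Calls for 3 members depended on the model. When limma's prior variance was allowed to depend on brightness, RCL1 (adjusted p = 0.000386), PNO1 (adjusted p = 0.000660) and POLR1G (adjusted p = 0.00233) were called, all higher in CA. The background was 1.23% of genes in either direction and 0.734% for genes higher in CA, and the other 45 were not. With probe sets at or above the 75th percentile alone the same 3 genes were called, at adjusted p of 0.00660, 0.0267 and 0.0124, where 1.21% of genes were. Over all alternatives tried, the limma adjusted p ran from 0.000386 to 0.407 for RCL1, 0.000660 to 0.594 for PNO1 and 0.00233 to 0.442 for POLR1G, and with 3' control scaling 29 members were called beside 27.7% of all genes. With any 1 array left out 0 members were called, beside 0.0078% to 0.0156% of all genes. Without CA array 1, 5 members were at an unadjusted p under 0.05 in place of 9, beside 11.1% of genes. These were RCL1 (0.37), POLR1G (0.30), PNO1 (0.22), POLR1F (0.15) and RRS1 (0.15), and the median of the small-subunit factors was then 0.07.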

How the data were processed

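Per the submitters' processing notes, the deposited log2 values were made by the authors with RMA in the affy package, version not given. RMA subtracts background, makes the intensity distributions of the arrays alike and summarises each probe set. Small changes of dim probe sets are thereby compressed. Per the labels' protocols, 100 ng of total RNA was labelled from the poly(A) end, and RNA was extracted by either of a pair of methods, with no word on which sample had which. Of 54675 probe sets 62 controls were left out, and 27307 with a mean at or above the median (3.49) were tested.

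CA was compared with DMSO by lmFit and eBayes (limma 3.58.1, R 4.3.3), 2-sided, over 6 arrays with no block, with Benjamini-Hochberg adjustment over all tested probe sets. The model was tested on simulated data, in which every change put in was larger than that of any member. Recovery of changes of the members' size was not simulated. Symbols came from the platform annotation. Of 41091 single-symbol probe sets 41037 matched a RefSeq gene ID, and 0 symbols differed. A gene was read from its brightest tested probe set. Per-array values are given for MYC, for the 3 members of each role with the smallest p and the brightest one, for up to 3 further pathway genes in each direction at p under 0.05, and for the brightest gene of the ribosomal protein list. BYSL and LTV1 were added after their values were seen. The members, lists, tests and the motif search were chosen with earlier results of these data known. Alternatives changed the normalisation, the scaling, the filter, the variance model, the arrays included and the probe sets per gene. The number of arrays limits the precision.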

Additional observations from a re-analysis of the deposited data

How the results depend on the processing

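Over all probe sets 26 were called by limma. The count was 5 when dim probe sets were kept, 162 with a filter at the 75th percentile, 285 with the mean-dependent prior variance, 1 without probe sets ending in _s_at or _x_at, 2 to 5 with 1 array left out, 7804 with 3' and 40 with 5' control scaling. With the replicate block it was 0, and 8.04% of genes were then at an unadjusted p under 0.05. Members called numbered 0, but 3 with the 75th percentile filter, 3 with the mean-dependent variance and 29 with 3' control scaling (1.21%, 1.23% and 27.7% of all genes). Members at an unadjusted p under 0.05 numbered 9, but 43 with 3' and 5 with 5' control scaling, and 5 to 10 with 1 array left out. Over all genes the shares were 57.2% and 5.22% with 3' and 5' control scaling. The lowest count with 1 array left out, 5, came without CA array 1 and without CA array 2, beside 11.1% and 6.80% of all genes. The median change of the members, 0.03, was 0.0102 with centring, 0.229 and 0.0915 with 3' and 5' control scaling, 0.0399 without _s_at and _x_at probe sets, and 0.0209 to 0.0418 with 1 array left out. The 3' control probe sets averaged 8.02 in CA and 8.23 in DMSO, and the 5' ones 6.57 and 6.64, so these scalings add 0.20 and 0.07 to every change and move the median of all genes to 0.19 and 0.05. The labels do not say how the controls were added. MYC kept its change but not its call with no filter (0.50, adjusted p = 0.115), with the replicate block (0.50, adjusted p = 0.352) and with 1 array left out (0.49 to 0.51, adjusted p = 0.0916 to 0.198). Samples of the same number did not deviate together (correlations -0.07, 0.01 and 0.06), so the numbers were not taken as pairs.

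For 20 members followed through 314 alternatives, 277 kept direction and side of the threshold, 19 gained a call, 13 of them with 3' control scaling, and 18 turned sign. With 3' control scaling POLR1H was at 0.17, UBTF 0.0579, NHP2 0.16, FBL 0.17, UTP4 0.20, PES1 0.12 and MYBBP1A 0.0938. With 5' control scaling POLR1H was at 0.0301, NHP2 0.0244, FBL 0.0325 and UTP4 0.0637. RRN3 was at -0.0015 with centring and at -0.0055 to 0.0420 with 1 array left out. UTP4 was at -0.0188 to 0.0061 with 1 array left out and 0.0282 as the mean of its probe sets. PA2G4 was at -0.0122 without _s_at and _x_at probe sets. Control scaling adds the same amount to every gene by construction. For the other turns the cause was not tested.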
